A study of Mus musculus with 24 samples.

Results

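The 7 genes described here encode acute-phase and antimicrobial proteins: the serum amyloid A genes Saa1, Saa2 and Saa3, the lipocalin Lcn2, the calprotectin subunits S100a8 and S100a9, and the mitochondrial superoxide dismutase Sod2. They were taken by symbol from the 22609 gene symbols of the count tables, and all 7 were present. The set was chosen by values of these same libraries, the lower Saa3 and Sod2 levels in treated paw on day 6 against the IgG group, so paw levels are given below as a description and nothing is inferred from tests on them. RNA sequencing of polyadenylated RNA was done on 24 libraries from male C57 mice aged 8 to 12 weeks. All mice had 10 µg of antibody per injection into the hind paw, either an agonistic antibody to the lymphotoxin beta receptor (LTβR) or IgG. The groups, of 3 libraries each, were IgG with tissue taken 1 day later (called IgG below), LTβR antibody with tissue taken 1 day after 1 injection (day 1), and LTβR antibody with tissue taken on day 6 after 2 injections (day 6). Paw skin and dorsal root ganglia (DRG) of levels L3 to L5 had all 3 groups, and the lumbar spinal cord libraries used here had day 1 and day 6. No group of IgG on day 6 was analysed here, and day 6 differed from day 1 by time and by a further injection. The sample titles and the series design count the days from different injections, so day 6 is a group name rather than an exact interval.

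Serum amyloid A proteins are secreted apolipoproteins that rise during the acute-phase response, mainly from liver for Saa1 and Saa2 and from macrophages, fat cells and epithelia for Saa3. Lcn2 binds bacterial siderophores and so withholds iron. S100a8 and S100a9 pair as calprotectin, which binds zinc and manganese, is abundant in neutrophils and is made by stressed keratinocytes. Sod2 converts superoxide in mitochondria and is a well known NF-κB target. LTβR belongs to the tumour necrosis factor receptor family and signals through canonical and non-canonical NF-κB, the latter through Nfkb2 and Relb.

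The promoters of the 3 serum amyloid A genes and of Sod2 are shown because the first 3 are one gene family with a near-identical pair, and Saa3 and Sod2 are the members whose values chose the set. They are RefSeq sequences on GRCm38.p6, from 250 bases before to 50 bases after the annotated start, 5′ to 3′ on the gene's strand, at chr7:46742931-46743230 (minus), chr7:46751583-46751882 (plus), chr7:46715627-46715926 (minus) and chr17:13007589-13007888 (plus). Capitals mark matches to a C/EBP-like motif, TTGCNNAA, or an NF-κB-like motif, GGNNTTNCC, searched on both strands. The counts themselves were made on another build, mm9.
Saa1: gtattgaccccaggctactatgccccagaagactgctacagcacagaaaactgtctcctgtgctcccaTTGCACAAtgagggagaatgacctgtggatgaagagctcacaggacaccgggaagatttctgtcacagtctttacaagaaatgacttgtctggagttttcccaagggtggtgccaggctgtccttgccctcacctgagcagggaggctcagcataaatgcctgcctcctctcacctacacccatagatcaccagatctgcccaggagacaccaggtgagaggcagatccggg
Saa2: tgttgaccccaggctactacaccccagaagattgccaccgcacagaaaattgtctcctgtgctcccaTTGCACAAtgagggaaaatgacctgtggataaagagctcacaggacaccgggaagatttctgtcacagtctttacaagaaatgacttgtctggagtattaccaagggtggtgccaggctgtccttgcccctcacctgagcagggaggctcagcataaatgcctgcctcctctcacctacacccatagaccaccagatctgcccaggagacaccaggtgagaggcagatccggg
Saa3: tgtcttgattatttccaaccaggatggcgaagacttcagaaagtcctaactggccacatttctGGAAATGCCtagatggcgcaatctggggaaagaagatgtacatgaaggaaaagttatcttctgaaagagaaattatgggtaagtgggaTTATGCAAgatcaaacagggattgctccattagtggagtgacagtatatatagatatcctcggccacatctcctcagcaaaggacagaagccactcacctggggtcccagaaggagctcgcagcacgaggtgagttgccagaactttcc
Sod2: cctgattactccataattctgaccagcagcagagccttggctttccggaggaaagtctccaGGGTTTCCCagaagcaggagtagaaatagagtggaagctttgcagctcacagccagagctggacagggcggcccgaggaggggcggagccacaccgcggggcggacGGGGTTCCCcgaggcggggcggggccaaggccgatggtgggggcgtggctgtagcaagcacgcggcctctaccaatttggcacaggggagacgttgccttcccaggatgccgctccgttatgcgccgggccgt
Saa1 and Saa2 were identical at 95.4% of aligned promoter positions and each held 1 C/EBP-like match, starting 182 and 183 bases before the start. The Saa3 promoter was identical to that of Saa1 at 50.9% of positions. It held 1 C/EBP-like match, from 99 to 92 bases before the start, and 1 NF-κB-like match, from 187 to 179 bases before it, both on the opposite strand. Sod2 held 2 NF-κB-like matches, starting 189 and 83 bases before the start, and no C/EBP-like match. No 2 matches overlapped. Of all 32851 RefSeq mouse promoters of that length, 15.96% held the NF-κB-like motif and 10.8% the C/EBP-like motif, so a match describes the letters and shows no binding. In the other 3 promoters the C/EBP-like motif was found in Lcn2 and S100a9 and neither motif in S100a8, which says only that these letters are absent from that window.

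Saa1 and Saa2 also share part of their transcripts, which limits what their counts mean. In the GENCODE annotation, 14.8% of the 50-base windows of the longest Saa1 transcript recur in Saa2 or Saa3, and 9.12% of those of Saa2 recur in Saa1. For Saa3 4.60% of windows recur in other genes, such as Malat1, and for Sod2 1.43%, such as in Cdkn1a. Lcn2, S100a8 and S100a9 share no window with another gene. Reads with several placements are not counted by HTSeq. RefSeq lists Saa1 and Saa2 as synonyms of each other, so which of the pair each mm9 symbol stands for is uncertain, and their values are best read together.

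Reads counted in genes, in units of 1e6, ranged from 24.2 to 41.0 per library in paw, 21.6 to 34.2 in DRG and 15.7 to 26.3 in spinal cord. Levels are CPM, counts per 1e6 reads, scaled within each tissue, and they were not compared between genes, since longer transcripts give more reads. Tissue markers fitted the labels: Krt14, a basal keratinocyte keratin, was at 2152 to 5177 CPM in paw and at most 7.60 CPM elsewhere. Scn10a, a sensory neuron sodium channel, was at 642 to 808 CPM in DRG and at most 1.77 CPM elsewhere. Gfap, an astrocyte filament, was at 988 to 1403 CPM in spinal cord and at most 7.34 CPM elsewhere. Samples are numbered in the labels with no statement that each came from its own animal, so the p-values here reflect the spread between the sequenced samples, which may be technical. The share of all genes whose groups did not overlap was not counted, so a lack of overlap below describes the libraries and is no test result. In whole tissue, fewer cells of a type and less RNA per cell cannot be told apart.

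In paw, Saa3 was at 14.5, 16.7 and 6.99 CPM in the IgG libraries, at 5.62, 4.63 and 4.36 CPM on day 1, and at 0.37, 1.23 and 0.43 CPM on day 6. No 2 of the groups overlapped, and every day-6 library was below every day-1 library, which in turn lay below every IgG library. Mean levels were 12.7 ± 5.08 CPM (SD, n = 3) with IgG, 4.87 ± 0.66 on day 1 and 0.68 ± 0.48 on day 6. The log2 fold change was -4.19 ± 0.50 (SE) for day 6 against IgG, -1.38 ± 0.44 for day 1 against IgG and -2.80 ± 0.48 for day 6 against day 1. The day-6 level rests on 13 to 54 reads per library.

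Saa1 was at 3.99, 6.08 and 1.02 CPM with IgG, at 3.17, 3.55 and 0.69 CPM on day 1, and at 0.23, 0.57 and 0.34 CPM on day 6. The IgG and day-1 groups overlapped, and the day-6 group lay below both. Its log2 fold change for day 6 against IgG was -3.25 ± 0.80 (SE). Saa2 was at 0.44, 2.06 and 0.24 CPM with IgG, at 1.15, 1.68 and 0.27 CPM on day 1, and at 0.23, 0.14 and 0.31 CPM on day 6, with 6 to 50 reads per library. All 3 of its groups overlapped with one another. Library 3 of both the IgG and the day-1 group was the lowest of its group for Saa1, Saa2 and Saa3.

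Lcn2 in paw was at 51.7, 55.3 and 13.04 CPM with IgG, at 33.0, 13.1 and 14.2 CPM on day 1, and at 1.43, 14.9 and 1.30 CPM on day 6. Day-6 library 2 reached the day-1 range while the other 2 day-6 libraries were lowest of all 9. The log2 fold change for day 6 against IgG was -2.75 ± 1.07 (SE), and it was -2.29 to -4.86 with any 1 library left out.

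S100a8 in paw was at 155, 201 and 18.9 CPM with IgG, at 27.1, 7.28 and 11.5 CPM on day 1, and at 6.98, 56.1 and 1.43 CPM on day 6. S100a9 followed it, at 134, 167 and 14.2 CPM with IgG, at 23.5, 3.92 and 7.73 CPM on day 1, and at 3.40, 56.4 and 0.93 CPM on day 6. For both genes the high libraries were IgG 1 and IgG 2, followed by day-6 library 2, and all 3 groups overlapped. The log2 fold changes of S100a8 were -3.03 ± 1.40 (SE) for day 1 and -2.53 ± 1.37 for day 6 against IgG. Without IgG libraries 1 and 2, a choice made after the values were seen, the day-6 difference of S100a8 from the single remaining IgG library was 0.25.

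Sod2 in paw differed from the other members in having little spread. It was at 112, 114 and 110.2 CPM with IgG, at 118, 115 and 109 CPM on day 1, and at 84.6, 84.6 and 88.0 CPM on day 6. The IgG and day-1 groups overlapped and the 3 day-6 libraries lay below all 6 others. The mean was 112 ± 1.91 CPM (SD, n = 3) with IgG and 85.7 ± 1.98 on day 6, a log2 fold change of -0.39 ± 0.07 (SE). Day 6 against day 1 gave -0.42 ± 0.07.

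**Figure D1:**
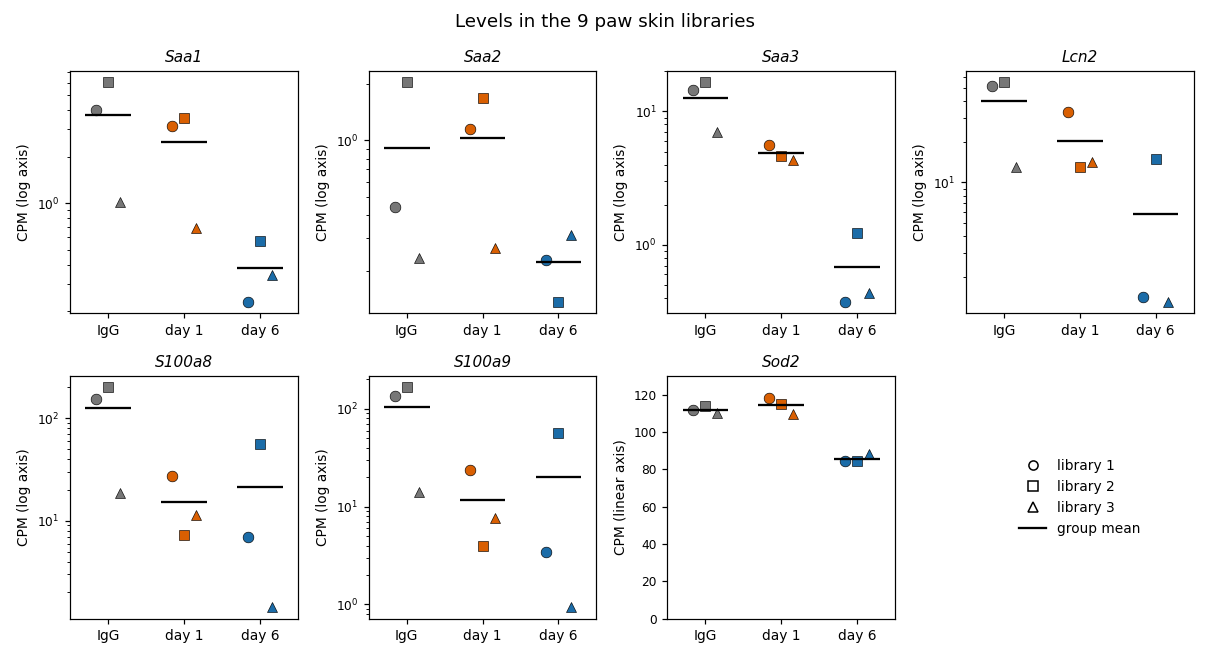
Levels of the 7 genes in the 9 paw skin libraries, in CPM on a log axis except for Sod2, whose axis is linear and starts at 0. Each symbol is 1 library and each bar the mean of 3. Saa1, Saa3 and Sod2 separate the day-6 libraries from the other 6, while S100a8 and S100a9 are high in IgG libraries 1 and 2 and in day-6 library 2.

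With edgeR's quasi-likelihood test and Benjamini-Hochberg adjustment over all 15287 genes tested in paw, all 7 members were testable. On day 6 against IgG, 2 of the 7 passed a threshold of 0.05, Saa3 and Sod2, where 0.706% of all genes did, and both are the values that chose the set. On day 6 against day 1 the same 2 passed, beside 1.03% of all genes, and that comparison uses the same day-6 libraries. On day 1 against IgG 0 passed, beside 0.00654% of all genes (1 gene). There 1 member, Saa3, had an unadjusted p under 0.05, beside 10.6% of all genes. DESeq2 and limma voom called 0 members there, beside 209 and 1 of all genes. DESeq2 called 3 members on day 6 against IgG and 3 against day 1, Saa1 being the third, beside 509 and 737 of all genes. The median log2 fold change over the members was -0.99 on day 1 and -2.53 on day 6 against IgG, and over all genes it was 0.01 and -0.01. The calls depended on single libraries. For day 6 against IgG, Saa3 missed the threshold without IgG library 2 (adjusted p = 0.0581) or 3 (0.0678), and without library 1 (0.0673) or 2 (0.0709) of day 6, and Sod2 missed it without any 1 of the 6 libraries (0.0671 to 0.223). For day 6 against day 1, both missed it without any 1 of the 6 libraries (0.0890 to 0.161 for Saa3 and 0.0550 to 0.192 for Sod2).

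**Figure D2:**
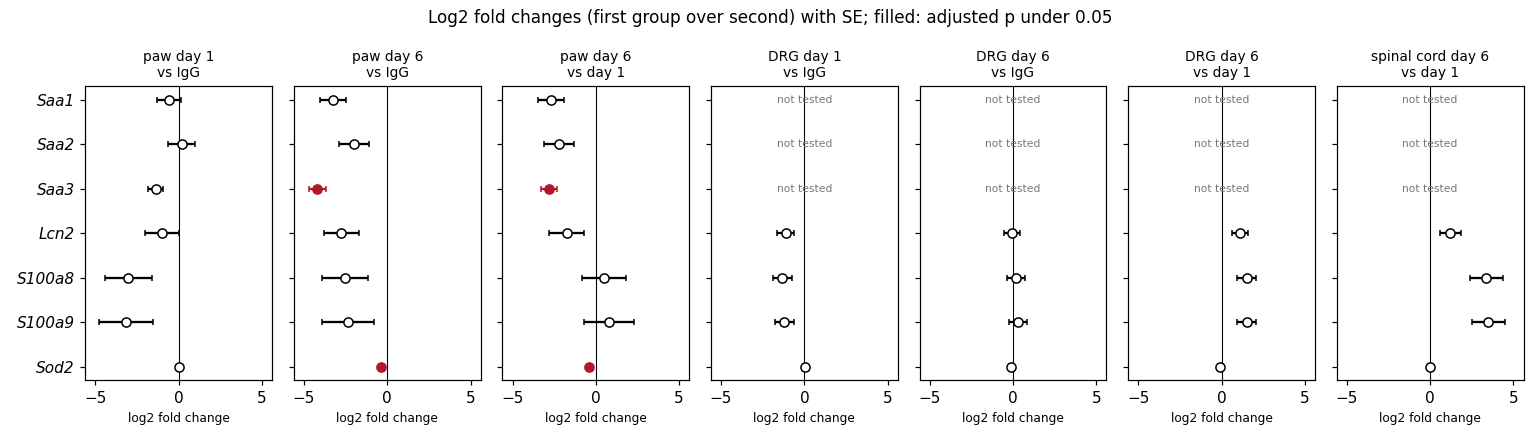
Log2 fold changes of the 7 genes with standard errors in the 7 comparisons, first group over second. Filled red points passed an adjusted p of 0.05 (Saa3 and Sod2 on day 6 in paw), and genes with too few reads to test are marked.

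The libraries with high S100a8 and S100a9 in paw were those with high stress keratinocyte genes. Krt6a, a keratin of injured and hyperproliferating epidermis, was at 1983, 2097 and 492 CPM with IgG, at 606, 285 and 260.1 CPM on day 1, and at 51.8, 801 and 94.0 CPM on day 6. Its 3 highest libraries were IgG 1, IgG 2 and day-6 library 2, as for calprotectin. The 13 stress keratinocyte markers summed to 2341 to 7715 CPM with IgG, 1577 to 2539 CPM on day 1 and 940.2 to 3418 CPM on day 6. Of 12 tested, 12 had a negative log2 fold change on both days against IgG, with medians of -1.08 and -1.02. In edgeR 0 passed the threshold. On each day 3 had an unadjusted p under 0.05, beside 10.6% (day 1) and 9.74% (day 6) of all genes. The part of these genes in the paw differences was not tested.

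The neutrophil granule genes Ngp, Ltf, Camp and Mpo were near 0 in the same paw libraries, while other neutrophil markers, such as Cxcr2, were not. Ngp, a neutrophil granule protein, had 1 to 5 reads per paw library, Ltf, lactoferrin, 0 to 5, Camp, cathelicidin, 1 to 14, and Mpo, myeloperoxidase, 0 to 2. The 16 neutrophil markers found in the tables summed to 93.7 to 132 CPM with IgG, 77.1 to 99.0 CPM on day 1 and 84.6 to 128 CPM on day 6, so the groups overlapped. Cxcr2, the receptor for neutrophil-attracting chemokines, contributed 5.83 to 17.6 CPM. The granule genes alone therefore do not show how much neutrophil RNA the paw libraries held, which was not tested. Of 9 neutrophil markers tested on day 1 against IgG, 9 had a negative log2 fold change, with a median of -0.72. In edgeR 0 passed, with 1 at an unadjusted p under 0.05 (Cxcr2, -0.72 ± 0.26, SE), beside 10.6% of all genes. Of the same 9, 0 passed on day 6 against IgG, with a median log2 fold change of -0.19. There 1 had an unadjusted p under 0.05, beside 9.74% of all genes.

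In paw, the genes whose levels were most like those of Saa3 over the 9 libraries were Leprel1, Gcnt2, Acsm3, Adamts1, Cxcl1 and Bai2, with Pearson r of log2 CPM from 0.96 to 0.93 among 12946 genes. Cxcl1, a neutrophil-attracting chemokine, was at 12.1, 15.0 and 2.40 CPM with IgG, at 5.76, 4.43 and 4.86 CPM on day 1, and at 0.89, 1.84 and 0.96 CPM on day 6. Its IgG library 3 lay below the day-1 group, unlike Saa3. The 3 most like Lcn2 were Gclm (r = 0.98), which encodes a subunit of the glutathione-synthesis enzyme, Ramp3 and Lce3b. Those most like S100a8 were S100a9 (r = 0.995), Prss22 and Sprr2d, and those most like S100a9 were S100a8, Prss22 and Krt16. Asap2, Ppp1cb and Adamts1 were most like Sod2, Stau1, Rrp12 and Adamts1 most like Saa1, and Fam160a2, Zcchc14 and Spry2 most like Saa2. These r describe 9 libraries that share group and depth, and carry no test.

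In DRG and spinal cord the serum amyloid A genes were barely detected. Saa3 had 0 to 4 reads in each DRG library and 0 to 2 in 5 of the 6 spinal cord libraries, with 16 reads (1.01 CPM) in day-6 library 3. Saa1 had 2 to 11 reads per DRG library and 4 to 10 per spinal cord library, and Saa2 had 0 to 8 and 2 to 9. The Saa1 reads in DRG were 3, 4 and 2 with IgG, 11, 8 and 6 on day 1, and 5, 5 and 5 on day 6. Every day-1 library was thus above the other 6 in reads and in CPM (0.204 to 0.358 on day 1 and at most 0.164 in the others). The counts were too few for the test, and how many of all genes separate in this way was not counted. All 3 fell under the filter on low counts and were not tested, which left Lcn2, S100a8, S100a9 and Sod2. With these few reads a change of Saa2 or Saa3 in DRG was not detectable at this depth.

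In DRG, Lcn2 was at 17.8, 13.6 and 24.1 CPM with IgG, at 11.2, 5.53 and 8.70 CPM on day 1, and at 29.7, 14.2 and 9.75 CPM on day 6. All 3 day-1 libraries were below all 3 IgG libraries, and the day-6 group overlapped both. The log2 fold change of day 1 against IgG was -1.13 ± 0.49 (SE; edgeR adjusted p = 0.681). S100a8 was at 55.8, 35.6 and 74.3 CPM with IgG, at 32.0, 14.3 and 20.3 CPM on day 1, and at 107, 49.6 and 32.6 CPM on day 6. Its day-1 group lay below both other groups, though the nearest libraries of day 1 and day 6 were almost level, and the IgG and day-6 groups overlapped. S100a8 differed by -1.32 ± 0.56 (log2, SE) on day 1 against IgG (edgeR adjusted p = 0.686) and by 1.51 ± 0.56 on day 6 against day 1 (0.694).

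S100a9 in DRG was at 82.8, 57.6 and 109.8 CPM with IgG, at 56.1, 20.4 and 32.2 CPM on day 1, and at 173, 74.8 and 60.9 CPM on day 6. As for S100a8, the day-1 group was the lowest and did not overlap with the others. Its log2 fold change was -1.20 ± 0.56 (SE) on day 1 against IgG (edgeR adjusted p = 0.724) and 1.51 ± 0.56 on day 6 against day 1 (0.694). Without day-6 library 1, which was the highest for all of Lcn2, S100a8 and S100a9, the last difference was 0.91 for S100a9, 0.89 for S100a8 and 0.50 for Lcn2. Sod2 in DRG was at 86.9, 87.8 and 88.1 CPM with IgG, at 92.0, 87.2 and 84.4 CPM on day 1, and at 76.6, 83.5 and 83.0 CPM on day 6. The day-6 group was below the others, with a log2 fold change of -0.11 ± 0.05 (SE) against IgG (edgeR adjusted p = 0.995).

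Of the 4 members tested in DRG, 0 passed the threshold in any of the 3 comparisons with edgeR, and DESeq2 and limma voom also called 0. At an unadjusted p under 0.05 there were 0 on day 1 against IgG, 0 on day 6 against IgG, and 3 on day 6 against day 1 (S100a8, S100a9 and Sod2). Of all 15461 genes tested, 0.168% passed on day 1 against IgG, 0% on day 6 against IgG and 0.103% on day 6 against day 1, and 1144, 557 and 1056 genes had an unadjusted p under 0.05. The median log2 fold change over the 4 members was -1.17, 0.07 and 1.29 in these comparisons, beside 0.00 over all genes in each.

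Neutrophil granule genes had levels in DRG that went with those of calprotectin. Ngp was at 43.1, 27.4 and 71.6 CPM with IgG, at 24.6, 11.6 and 18.5 CPM on day 1, and at 89.1, 42.0 and 30.8 CPM on day 6. Its order over the 9 libraries was close to that of S100a8, with day-6 library 1 highest and day-1 library 2 lowest for both. The genes most like S100a8 over the 9 DRG libraries among 13058 were Ngp (r = 0.99), S100a9 and Ltf. Those most like S100a9 were S100a8, Camp and Ltf, and those most like Lcn2 were S100a8 (r = 0.98), Ltf and Cxcr2. Sod2 was most like Clip4, Trpc2 and Aass.

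The 16 neutrophil markers summed to 97.9 to 238 CPM with IgG, 42.2 to 97.2 CPM on day 1 and 101.4 to 284 CPM on day 6 in DRG, so the day-1 group did not overlap with the others. Of 13 tested on day 1 against IgG, 13 had a negative log2 fold change, with a median of -1.25. In edgeR 0 passed, with 5 at an unadjusted p under 0.05, beside 7.4% of all genes. The one with the smallest p was Cxcr2 (log2 fold change -1.02 ± 0.39, SE). On day 6 against day 1, 12 of 13 were positive with a median of 1.27. There 0 passed, with 5 at an unadjusted p under 0.05, beside 6.83% of all genes. Stress keratinocyte markers summed to no more than 7.81 CPM in any DRG library. One DRG library stood apart, IgG library 1, where 31.5% of reads fell outside annotated features, a share that was 13.1 to 13.8% in the remaining 8. Without it the log2 fold changes of day 1 against IgG were -1.16 for Lcn2, -1.32 for S100a8 and -1.22 for S100a9. Adipocyte markers differed in the opposite direction in the same comparison. All 5 tested had a positive log2 fold change, with a median of 1.67. In edgeR 0 passed, with 4 at an unadjusted p under 0.05, beside 7.4% of all genes. The smallest p was that of Plin1, a lipid droplet protein (1.97 ± 0.54, log2, SE). Adipocyte markers summed to 9.50 to 21.9 CPM with IgG, 29.8 to 109 CPM on day 1 and 28.8 to 61.0 CPM on day 6, so the IgG group did not overlap with the others. Macrophage markers summed to 180.3 to 221 CPM with IgG and 246 to 264 CPM on day 1, again without overlap. Of 10 tested, 9 had a positive log2 fold change, with a median of 0.37. In edgeR 1 passed (Mrc1, which rose), beside 0.168% of all genes, and 8 had an unadjusted p under 0.05, beside 7.4%. The part of neutrophil, adipocyte or macrophage RNA in the DRG differences was not tested.

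**Figure D3:**
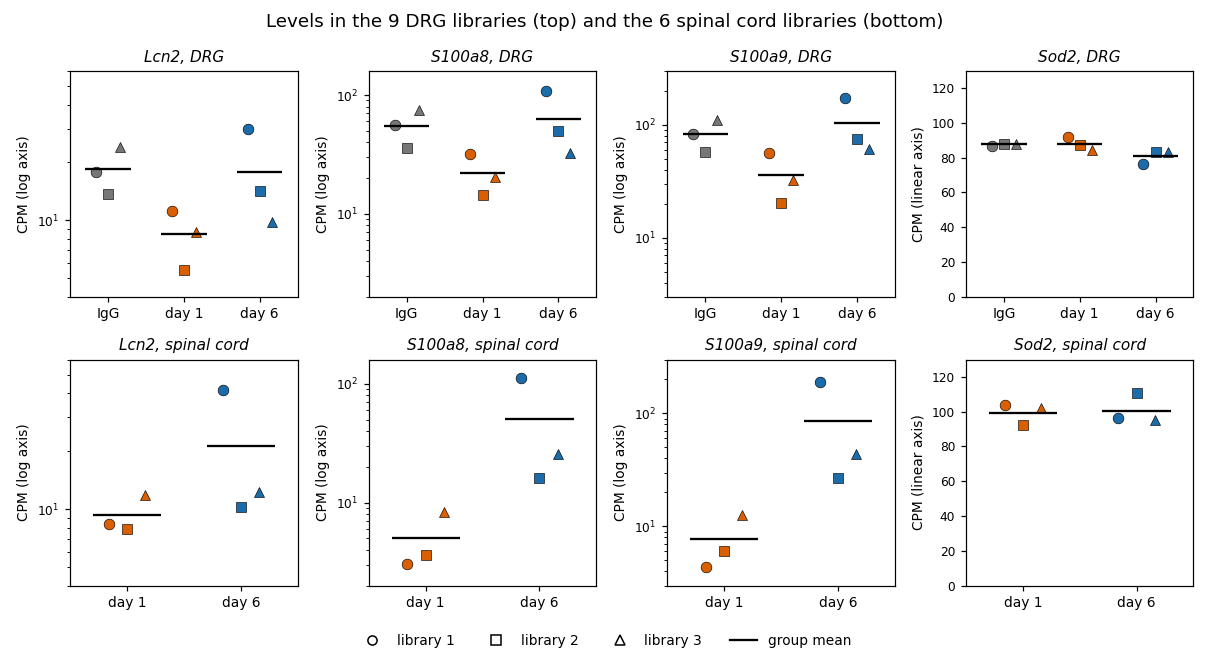
Levels of Lcn2, S100a8, S100a9 and Sod2 in the 9 DRG libraries (top) and the 6 spinal cord libraries (bottom), in CPM on log axes except for Sod2. Each symbol is 1 library and each bar the mean of 3; in DRG the day-1 libraries are lowest for calprotectin, and in spinal cord day-6 library 1 is far above the rest for Lcn2, S100a8 and S100a9.

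In spinal cord, S100a8 was at 3.06, 3.64 and 8.31 CPM on day 1 and at 111, 16.1 and 25.8 CPM on day 6. S100a9 was at 4.39, 6.00 and 12.6 CPM on day 1 and at 188, 26.8 and 43.5 CPM on day 6. For both genes every day-6 library was above every day-1 library. The log2 fold change was 3.36 ± 0.99 (SE) for S100a8 (edgeR adjusted p = 0.482) and 3.50 ± 1.00 for S100a9 (0.481). DESeq2 called S100a9 (log2 fold change 3.48, adjusted p = 0.0381) and not S100a8 (3.34, adjusted p = 0.0554). The size rested largely on day-6 library 1. Without it the log2 fold changes were 2.06 for S100a8 and 2.19 for S100a9, with an adjusted p of 0.857 for both.

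Lcn2 in spinal cord was at 8.33, 7.84 and 11.8 CPM on day 1 and at 41.6, 10.2 and 12.2 CPM on day 6. The groups overlapped, and the log2 fold change of 1.20 ± 0.63 (SE; edgeR adjusted p = 0.565) was 0.26 without day-6 library 1. Sod2 was at 104, 92.6 and 102 CPM on day 1 and at 96.2, 111 and 95.1 CPM on day 6, which overlapped (0.02 ± 0.08, log2, SE; edgeR adjusted p = 0.942). Of the 4 members tested 0 passed in edgeR, with 2 at an unadjusted p under 0.05, 1 called by DESeq2 and 0 by limma voom. Of all 15096 genes 0% passed, 1464 had an unadjusted p under 0.05, and DESeq2 called 64. The median over the members was 2.28 and over all genes 0.01.

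Neutrophil markers moved with calprotectin in spinal cord as well. Ngp was at 2.44, 4.57 and 9.43 CPM on day 1 and at 133, 18.6 and 32.6 CPM on day 6, with its highest library again day-6 library 1. The 16 neutrophil markers summed to 37.7 to 56.7 CPM on day 1 and 85.4 to 424 CPM on day 6. Of 12 tested, 12 had a positive log2 fold change with a median of 3.18. In edgeR 0 passed, with 9 at an unadjusted p under 0.05, beside 9.7% of all genes. The one with the smallest p was Mpo (3.06 ± 0.74, log2, SE). Krt6a, Krt6b, Krt16 and Sprr2d had 0 reads in all 6 libraries. Of the other lists, the 1 adipocyte marker tested, Fabp4, a fatty acid binding protein, had a log2 fold change of 2.03 ± 0.46 (SE) and did not pass in edgeR, with an unadjusted p under 0.05. Adipocyte markers summed to 0.33 to 1.49 CPM on day 1 and 2.01 to 2.91 CPM on day 6, without overlap. Of 9 macrophage markers 0 passed in edgeR, with 1 at an unadjusted p under 0.05, the monocyte chemokine receptor Ccr2 (2.95 ± 0.73, log2, SE), and their sums overlapped (254 to 293 and 237 to 308 CPM). All 8 skeletal muscle markers (median log2 fold change 1.32) and all 5 fibroblast markers (median 0.87) were higher on average on day 6, but 0 passed in edgeR and 0 had an unadjusted p under 0.05 in either list. Muscle marker sums were 219.7 to 349 CPM on day 1 and 165 to 965 CPM on day 6, and fibroblast sums 273 to 706 and 280.03 to 1197 CPM, so both overlapped. The part of RNA from any of these cells in the spinal cord difference was not tested.

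**Figure D4:**
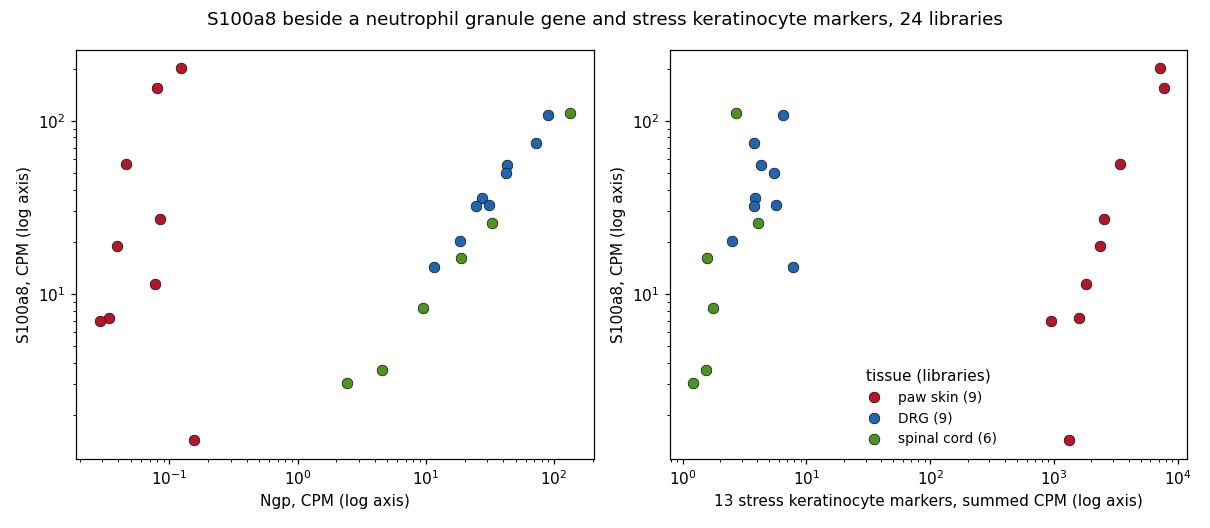
S100a8 in each of the 24 libraries against Ngp (left) and against the summed level of 13 stress keratinocyte markers (right), in CPM on log axes, with 1 point per library. In DRG and spinal cord S100a8 is higher where Ngp is higher, while the paw libraries all have Ngp at 0.03 to 0.16 CPM and have most S100a8 where the stress keratinocyte markers are highest.

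The ratio of calprotectin subunits also set paw apart. S100a9 reads per S100a8 read were 0.49 to 1.01 in the 9 paw libraries (median 0.75), 1.42 to 1.87 in DRG (median 1.58) and 1.44 to 1.70 in spinal cord (median 1.66). No paw library overlapped with either nervous tissue, while DRG and spinal cord did overlap. Within paw the ratio was 0.87, 0.83 and 0.75 with IgG, 0.87, 0.54 and 0.67 on day 1, and 0.49, 1.01 and 0.65 on day 6, so the groups overlapped. S100a8 reads per Ngp read were 1.04 to 1.30 in DRG and 0.79 to 1.25 in spinal cord, and 9.20 to 1928 in paw. A ratio of 2 genes in one library does not depend on the scaling. In paw, however, Ngp had only 1 to 5 reads per library, so the S100a8 to Ngp ratio there varies with single reads. The difference between tissues is given as a description.

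**Figure D5:**
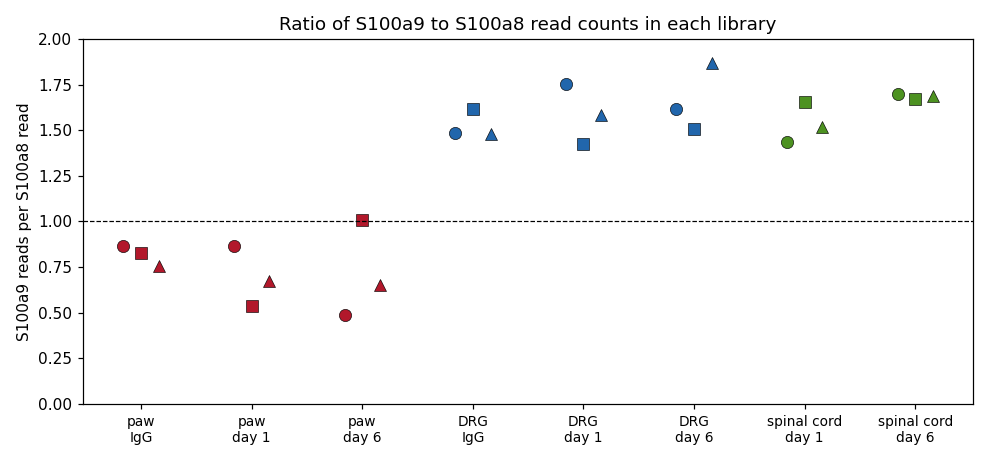
S100a9 reads per S100a8 read in each of the 24 libraries, by tissue and group, with a dashed line at 1. The paw libraries lie at 0.49 to 1.01 and the DRG and spinal cord libraries at 1.42 to 1.87.

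The ratio of Lcn2 to S100a8 ranged less in DRG than in the other tissues. Lcn2 reads per S100a8 read were 0.28 to 0.43 in the 9 DRG libraries, 0.38 to 2.73 in spinal cord and 0.20 to 1.80 in paw. In spinal cord and paw the day-1 libraries had the highest ratios, so the wide ranges lay between groups. Spinal cord was at 2.73, 2.16 and 1.425 on day 1 and at 0.38, 0.64 and 0.47 on day 6. Paw was at 0.33, 0.27 and 0.69 with IgG, at 1.22, 1.80 and 1.23 on day 1, and at 0.20, 0.27 and 0.91 on day 6. The difference of each member's change between paw and DRG was tested as an interaction over 18 libraries. Saa1, Saa2 and Saa3 entered this fit only through their paw reads, so no difference between tissues is read for them. Of the 4 members tested in both tissues, 0 passed in edgeR for any of the 3 contrasts, where 0%, 0.498% and 0.808% of all 16461 genes passed for day 1 against IgG, day 6 against IgG and day 6 against day 1. At an unadjusted p under 0.05 there were 0, 2 and 2 of the 4 (Lcn2 and Sod2 both times), beside 9.68%, 7.73% and 12.3% of all genes. DESeq2 called 0, 1 and 1 of the 4 (Sod2 both times), beside 59, 234 and 464 of all genes. Both day-6 contrasts hold the paw values that chose the set, so they are a description.

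Genes of the surrounding pathways were taken from lists that were not picked for how their genes moved, although earlier results were known. Of 18 transcription factors and feedback genes tested in paw, Relb alone rose on day 1 and Nfkb2 and Relb rose on day 6 against IgG. Relb, the non-canonical NF-κB subunit, was at 13.2, 15.7 and 14.7 CPM with IgG, at 38.1, 41.1 and 36.3 CPM on day 1, and at 27.5, 21.4 and 25.2 CPM on day 6. It was highest on day 1 and intermediate on day 6 with no overlap, and its day-6 level was lower than on day 1 (log2 fold change -0.64 ± 0.12, SE; edgeR adjusted p = 0.0459). In DRG, Nfkb2 and Relb rose on day 1 (log2 fold changes 1.53 ± 0.17 and 0.88 ± 0.12, SE; edgeR adjusted p = 0.0139 and 0.0228). All 18 had a positive log2 fold change there, with a median of 0.37. Of these, 8 had an unadjusted p under 0.05, beside 7.4% of all genes. On day 6 against day 1 in DRG, Nfkb2 and Tnfaip3, an NF-κB feedback inhibitor, fell. There 16 of 18 were negative and 2 positive, with a median of -0.33. An unadjusted p under 0.05 was found for 9 of the 18, beside 6.83% of all genes. In spinal cord 0 of 18 passed in edgeR, with 2 at an unadjusted p under 0.05, beside 9.7% of all genes.

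Of 18 other acute-phase genes tested in paw, 0 passed in any comparison in edgeR. On day 6 against IgG 7 had an unadjusted p under 0.05, beside 9.74% of all genes. The one with the smallest p was Mt1, a metallothionein, at 284 ± 91.1 CPM (SD, n = 3) with IgG and 137 ± 25.2 on day 6. Of 22 other antimicrobial genes in paw, 2 rose on day 6 against IgG and 0 fell: Lyz2, the myeloid lysozyme (log2 fold change 1.91 ± 0.29, SE), and Cybb, the phagocyte NADPH oxidase subunit (2.50 ± 0.37), both at an edgeR adjusted p of 0.0314. Both are also expressed by macrophages. In the same comparison 6 of 10 macrophage markers rose, among them Mpeg1 and Csf1r, where 0.706% of all genes passed. Lyz2, Cybb and these markers were thus higher in the group in which Saa3 and Sod2 were lowest. The part of macrophage RNA in the paw differences was not tested. Of 11 other S100 genes and 23 other antioxidant genes tested in paw, 0 passed in any comparison in edgeR. S100a4 and Prdx4 had the smallest p on day 6 against IgG, at log2 fold changes of 0.33 ± 0.16 and 0.45 ± 0.12 (SE).

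Ligands and receptors around the members did not pass the threshold. Of 11 receptors of the encoded proteins in paw, 0 passed in edgeR, with 2 at an unadjusted p under 0.05 on day 6 against IgG. The one with the smallest p was P2rx7 (0.55 ± 0.13, log2, SE). In that comparison 9.74% of all genes had an unadjusted p under 0.05. Of 16 inducing cytokines and their receptors, 0 passed on day 6, with 2 at an unadjusted p under 0.05. Il6 had the smallest p, at 1.66 ± 1.55 CPM (SD, n = 3) with IgG and 0.15 ± 0.07 on day 6. All 6 neutrophil chemoattractants tested had a negative log2 fold change on day 6, with a median of -1.70, and 0 passed, with 3 at an unadjusted p under 0.05. In DRG and spinal cord these lists also had 0 genes past the threshold in edgeR, apart from those named above. Of 2 neutrophil chemoattractants tested in DRG on day 1 against IgG, 1 log2 fold change was positive (3.32) and 1 negative (-1.84). Cxcl1 had the smallest p, and 1 of the 2 had an unadjusted p under 0.05, beside 7.4% of all genes. Levels were low, with sums of 0.42 to 8.49 CPM with IgG and 0.85 to 3.65 CPM on day 1.

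Markers of the other cell types a biopsy could hold gave few calls. In paw on day 6 against IgG, 0 of 6 adipocyte, 0 of 5 fibroblast, 0 of 4 endothelial and 0 of 8 skeletal muscle markers passed in edgeR. Muscle RNA differed strongly between libraries of 1 group, with summed skeletal muscle markers at 146 to 16253 CPM in the IgG paw libraries. In DRG, Mrc1 and Pecam1 rose on day 1 and C1qa fell on day 6 against day 1, and in paw Sele fell on day 6 against day 1.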

How the data were processed

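Per the submitters' processing notes, the authors used bcl2fastq, TopHat2, HTSeq and the mm9 build, and deposited raw read counts per gene. Versions, annotation and strand setting are not given in the sources used here. Per the labels, libraries were stranded, polyadenylated and read as 50 bp single reads. The 5 summary lines of HTSeq were removed from each table. The 24 libraries formed 8 groups of 3.

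Each tissue was fitted with edgeR 4.0.16 (quasi-likelihood F test, 2-sided, TMM, default filter on low counts, robust; limma 3.58.1, R 4.3.3), with Benjamini-Hochberg adjustment over all genes tested and a threshold of 0.05. The fit was tested on simulated data. Alternatives were RLE, upper-quartile and all-library TMM scaling, no filter or 1 CPM in 3 libraries, limma voom, DESeq2 1.42.0, a replicate block, a muscle covariate, each pair of groups fitted alone, and 1 library left out at a time. The members and the 18 other gene lists were chosen with earlier results of these data known. Of 234 listed symbols 233 were found. Named genes were all members and, per list and comparison, those past the threshold, up to 4, or else the one with the smallest p. Genes named as alike had the highest Pearson r of log2 CPM (prior count 2), 6 for Saa3 and 3 for the others, among genes whose mean log2 CPM was 0 or more. The counts of Krt6a, Ngp, Cxcl1 and other marker genes were chosen for display after their values were seen. Promoters were aligned with Biopython 1.88.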

Additional observations from a re-analysis of the deposited data

How the results depend on the processing

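Of 556 alternative values of the members' log2 fold changes, 492 kept their direction and side of the threshold, 32 lost a call, 3 gained one and 29 changed sign, none of the last with a call. In paw on day 6 against IgG, where 2 members passed, 1 passed with RLE or upper-quartile scaling, without a filter or with a replicate block, 0 with only the groups compared, 0 without IgG libraries 1 and 2, and 0 to 1 with each library left out. Saa3 without those 2 libraries was at -3.29 (adjusted p = 0.238 in edgeR). On day 6 against day 1, 1 of the 2 remained past the threshold with a replicate block and 1 with only the groups compared, and 0 with any library left out. The labels do not say whether libraries that share a number are paired. The correlation of same-numbered deviations from the group means was -0.64 to 0.32 in paw, -0.69 to 0.24 in DRG and -0.60 to -0.18 in spinal cord. It was over 0.1 in 3 of 9 pairs in paw, 2 of 9 in DRG and 0 of 3 in spinal cord. With 3 libraries per group these values cannot decide whether the numbers pair libraries. DESeq2 called 3 members in paw on day 6 against IgG and 3 against day 1, beside 509 and 737 of all genes. The member added was Saa1 (log2 fold change -3.26, adjusted p = 0.000900, and -2.69, adjusted p = 0.0105, both by DESeq2). In spinal cord DESeq2 called 1 member, beside 64 of all genes. For the difference between paw and DRG it called Sod2 on day 6 against IgG and on day 6 against day 1. The shares over all genes with an adjusted p were 1.42% and 2.93%. Both contrasts hold the paw values that chose the set. Saa1 also passed on day 6 against IgG, but it entered that fit only through its paw reads, so no difference is read for it.

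Signs changed as follows, and the cause was not tested. Without IgG libraries 1 and 2, day 1 against IgG in paw was 0.64 for Lcn2 and 1.29 for Saa1, and day 6 was 0.25 for S100a8 and 0.57 for S100a9. Saa2 on day 1 was -0.25 with the muscle covariate and -0.32 to 1.60 with each library left out. On day 6 against day 1 in paw, S100a8 was -0.88 and S100a9 -0.86 with the replicate block, and -1.86 to 1.22 and -2.43 to 1.83 with each library left out. In DRG on day 1, Sod2 was -0.000466 with RLE, -0.00692 with the 1 CPM filter, -0.000520 with voom, -0.000555 with DESeq2 and -0.035 to 0.026 with each library left out. In DRG on day 6 against IgG, Lcn2 was 0.036 with the muscle covariate, and with each library left out Lcn2 was -0.64 to 0.24, S100a8 -0.43 to 0.50 and S100a9 -0.30 to 0.57. In spinal cord Sod2 was -0.038 with voom and -0.059 to 0.058 with each library left out. Scaling over all 24 libraries moved 3 of 56 group levels by more than 1 SD, all of Sod2. Depth limits the serum amyloid A genes outside paw.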
